A study of Mus musculus with 4 samples.

Results

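The core circadian clock genes Per1, Per2, Per3, Cry1, Cry2, Nr1d1, Nr1d2, Arntl, Clock and Dbp were examined for sites bound by SHP (small heterodimer partner, gene Nr0b2) in the mouse intestine. These 10 genes, among 21887 protein-coding genes on chromosomes 1 to 19, X and Y, were chosen by name. For each one, every peak whose summit lay within 50 kb of either end of the gene was collected, and a gene was called occupied where a summit lay within 5 kb of an end. The peaks come from chromatin immunoprecipitation with an SHP antibody followed by sequencing, made on jejunum and ileum of SHP-knockout mice and of wild-type C57BL/6 mice aged 8 to 12 weeks. All mice of both genotypes had been fasted for 12 h and then given normal chow for 4 h. Per the labels, the immunoprecipitation and its input were done in 3 independent sets, each from 3 pooled mice, and the deposited data hold 1 peak list per genotype, with 7 peaks for knockout and 5775 for wild type. The tissue was not sorted into cell types, so a weak peak in all cells and a strong peak in some cells cannot be told apart. The clock time of collection is not given in the sources used here, nor whether it was the same for all sets. The phase of the daily cycle to which the values belong is therefore unknown.

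The circadian clock is a feedback loop of transcription factors that runs in most cells, including those of the gut lining, where feeding time sets its phase. CLOCK and BMAL1 (the product of Arntl) bind E-box sequences as a pair and activate the Per and Cry genes, whose proteins return to inhibit CLOCK and BMAL1. In a further loop the nuclear receptors REV-ERBα (Nr1d1) and REV-ERBβ (Nr1d2) repress Arntl, and DBP carries the rhythm to output genes through D-box sequences. SHP is an orphan nuclear receptor without a DNA-binding domain that acts as a corepressor on other factors, many of them nuclear receptors. Its own gene is a rhythmic target of the clock in liver.

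Of the 10 core clock genes, 7 were occupied, namely Per1, Per2, Per3, Cry1, Nr1d2, Clock and Dbp (70%, 95% exact interval 34.8 to 93.3), and Cry2, Nr1d1 and Arntl were not. Among all protein-coding genes 26.4% were occupied by the same rule. The interval covers counting error only. The 10 genes were picked by name, with earlier results of these data known, and are not a random draw of genes. By its name the wild-type list passed a threshold of 0.05 on the irreproducible discovery rate. There is 1 list per genotype, so none of these counts could be repeated on a second list, and no test was made. The occupied gene with the most distant nearest summit was Dbp, at 1834 bp, and the unoccupied gene with the closest was Nr1d1, at 26010 bp, so no gene lay near the 5 kb limit. Within 1 kb of an end 6 of the 10 genes had a summit, against 20.7% of all protein-coding genes. The count was 7 within 2 kb (against 23.1%) and within 10 kb (against 30.5%), and 10 within 50 kb (against 48.2%).

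**Figure D1:**
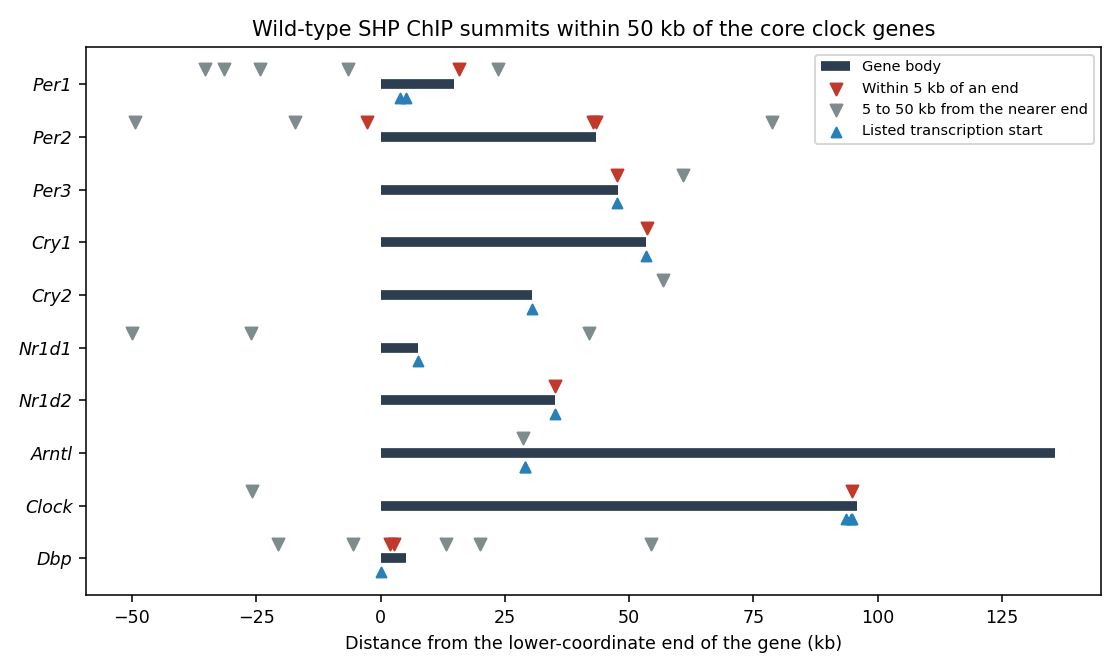
Position of every wild-type SHP summit within 50 kb of the 10 core clock genes, in kb from the lower-coordinate end of each gene (x axis), with 1 row per gene. Dark bars are gene bodies, red triangles are summits within 5 kb of an end, grey triangles are summits 5 to 50 kb from the nearer end, and blue triangles are transcription starts of the RefSeq promoter table, which has no entry for Per2. The 10 red summits belong to 7 genes, and the summit of Arntl lies above its listed starts although it is far from both gene ends.

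**Figure D2:**
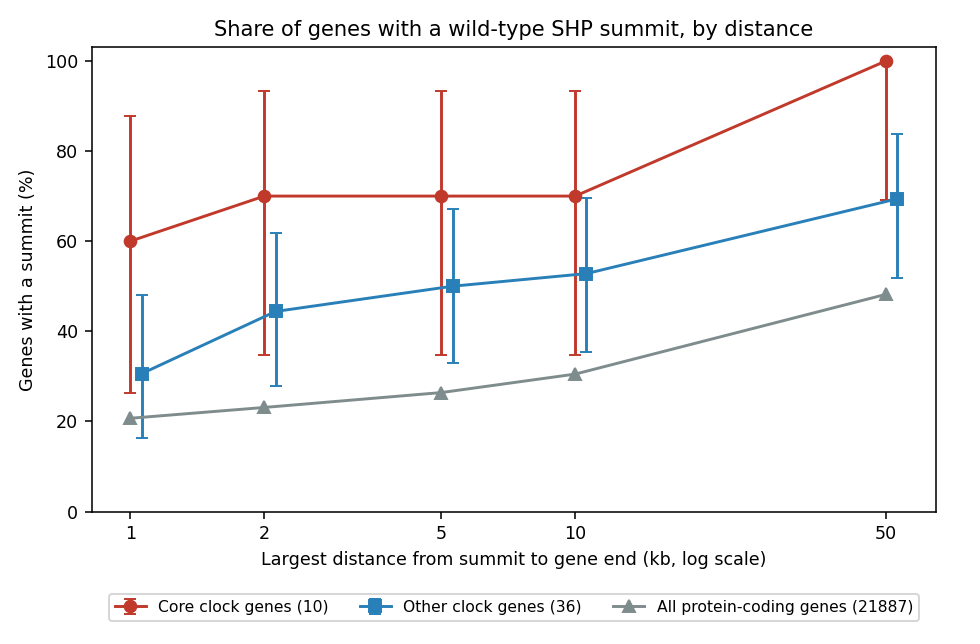
Share of genes (y axis, percent) with a wild-type SHP summit within 1, 2, 5, 10 or 50 kb of a gene end (x axis, log scale) for the 10 core clock genes, 36 other clock genes and all 21887 protein-coding genes. Bars are 95% exact binomial intervals, which cover counting error only. The core clock share runs from 60% within 1 kb to 100% within 50 kb, and that of all genes from 20.7% to 48.2%.

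Promoter windows of 300 bases, from 250 before to 50 after a transcription start, are given below for 3 pairs of related genes of which one window shares bases with a wild-type peak and the other does not, and for Arntl. The sequences are from RefSeq on GRCm38.p6, the assembly whose coordinates are those of mm10, and run 5′ to 3′ along the gene. Windows that share bases with a peak are Cry1 at chr10:85185005-85185304 (minus strand), Per3 at chr4:151044616-151044915 (minus), Nr1d2 at chr14:18239057-18239356 (minus) and the second listed start of Arntl at chr7:113207261-113207560 (plus). Windows that do not are Cry2 at chr2:92434020-92434319 (minus), the first listed start of Per1 at chr11:69098699-69098998 (plus) and Nr1d1 at chr11:98775328-98775627 (minus). Capitals mark the E-box CACGTG, its variant CACGTT, the D-box TTATGTAA and the nuclear receptor half-site AGGTCA on either strand.
Cry1: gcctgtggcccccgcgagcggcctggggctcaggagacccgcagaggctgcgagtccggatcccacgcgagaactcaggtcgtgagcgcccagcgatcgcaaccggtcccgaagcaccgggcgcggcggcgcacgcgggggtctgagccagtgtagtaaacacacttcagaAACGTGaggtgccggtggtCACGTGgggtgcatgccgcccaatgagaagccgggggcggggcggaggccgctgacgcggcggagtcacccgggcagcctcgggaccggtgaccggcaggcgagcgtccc
Cry2: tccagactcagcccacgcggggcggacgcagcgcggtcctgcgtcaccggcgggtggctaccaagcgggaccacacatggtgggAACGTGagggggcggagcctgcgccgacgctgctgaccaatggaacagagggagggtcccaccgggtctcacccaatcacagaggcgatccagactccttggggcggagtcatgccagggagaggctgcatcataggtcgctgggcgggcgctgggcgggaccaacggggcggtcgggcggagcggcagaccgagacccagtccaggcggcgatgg
Per3: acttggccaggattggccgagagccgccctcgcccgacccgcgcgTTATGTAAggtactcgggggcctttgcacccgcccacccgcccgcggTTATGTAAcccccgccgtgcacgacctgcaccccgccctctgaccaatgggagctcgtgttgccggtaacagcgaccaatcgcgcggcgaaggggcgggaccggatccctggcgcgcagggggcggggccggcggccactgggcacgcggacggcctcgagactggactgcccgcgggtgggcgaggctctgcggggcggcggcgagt
Per1: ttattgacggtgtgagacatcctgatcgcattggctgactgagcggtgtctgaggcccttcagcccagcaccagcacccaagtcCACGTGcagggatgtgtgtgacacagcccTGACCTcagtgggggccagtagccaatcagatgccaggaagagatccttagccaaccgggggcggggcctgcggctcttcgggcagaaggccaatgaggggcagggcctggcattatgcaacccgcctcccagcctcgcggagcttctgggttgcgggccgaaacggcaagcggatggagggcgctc
Nr1d2: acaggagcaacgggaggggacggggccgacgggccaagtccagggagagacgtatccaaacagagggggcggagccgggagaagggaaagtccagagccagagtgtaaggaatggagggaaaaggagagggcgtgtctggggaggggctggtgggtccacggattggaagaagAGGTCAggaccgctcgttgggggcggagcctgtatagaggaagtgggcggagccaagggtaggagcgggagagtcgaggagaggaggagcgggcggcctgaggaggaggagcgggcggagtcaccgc
Nr1d1: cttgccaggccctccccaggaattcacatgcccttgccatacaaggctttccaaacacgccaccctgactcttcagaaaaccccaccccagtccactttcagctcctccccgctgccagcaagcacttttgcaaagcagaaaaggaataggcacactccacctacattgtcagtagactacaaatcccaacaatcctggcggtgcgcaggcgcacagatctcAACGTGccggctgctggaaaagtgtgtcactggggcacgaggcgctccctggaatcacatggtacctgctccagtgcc
Arntl: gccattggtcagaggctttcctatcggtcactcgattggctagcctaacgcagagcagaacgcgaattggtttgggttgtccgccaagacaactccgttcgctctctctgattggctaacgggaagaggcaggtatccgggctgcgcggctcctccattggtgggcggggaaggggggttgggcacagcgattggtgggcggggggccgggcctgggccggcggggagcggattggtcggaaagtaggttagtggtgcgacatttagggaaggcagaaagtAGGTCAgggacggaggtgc

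Both strands of each window were searched for these motifs, and for TTACGTAA (a further D-box form), CAAGGTCA (the form read by NR5A receptors, which contains AGGTCA), the cyclic AMP response element TGACGTCA and the GC box GGGCGG. The Cry1 window held an E-box 60 bases and an E-box variant 79 bases before the start. The Per1 window, with no peak, also held an E-box, 166 bases before the start, and the Cry2 and Nr1d1 windows, with no peak either, held the variant 166 and 28 bases before the start. The E-box was in 7.84% of the 21263 windows of protein-coding genes, in 11.3% of the 4373 windows that share bases with a peak and in 6.93% of the others. The variant was in 5.12% of windows that share bases with a peak and in 4.56% of the others. Windows that share bases with a peak had a median G+C content of 66% and 27 CpG sites, against 56.3% and 13 over all windows. The part of base composition in the motif shares given here and below was not tested.

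Per3 alone among the 9 core clock genes with an entry in the promoter table held the D-box TTATGTAA, at 205 and 158 bases before the start. That motif was in 0.894% of all windows, in 0.434% of those that share bases with a peak and in 1.01% of the others. The nuclear receptor half-site, of the kind read by REV-ERB and ROR receptors, lay 31 bases after the second listed start of Arntl and 77 bases before the start of Nr1d2. It also lay 137 bases before the first start of Per1 and 119 bases before the most downstream listed start of Clock. It was in 14.7% of all windows, in 10.3% of those that share bases with a peak and in 15.8% of the others. TTACGTAA, CAAGGTCA and TGACGTCA were in none of the 13 core clock windows, and were in 0.136%, 1.34% and 2.23% of all windows. Among windows that share bases with a peak these shares were 0.183%, 0.983% and 3.75%, and among the others 0.124%, 1.43% and 1.84%. These matches describe letters only and say nothing of which factor was bound.

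The Period genes encode the PER proteins, the partners of CRY in the inhibitory complex. Per3 had the highest value of the 7 occupied genes. Its peak, chr4:151044059-151045126, had an enrichment value of 6.86 and a −log10 p of 21.2, and its summit lay 84 bp downstream of the transcription start. The enrichment value is the authors' own signal per peak on an unstated scale, and it is used here to describe and rank peaks within the wild-type list. It ranked 868 of 5775 peaks for Per3, where the list median was 5.65 and the interquartile range 4.93 to 6.46. The same summit was 272 bp from an end of Gm38529, a predicted gene, and 2724 bp from an end of Vamp3, a vesicle fusion protein gene. A second peak lay 13185 bp from the nearer end of Per3 (5.39), beside the end of Vamp3.

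Per2 had 3 peaks within 5 kb. The strongest, chr1:91459014-91459951, had an enrichment value of 5.70 and its summit 129 bp inside the higher-coordinate end of the gene. A narrow second peak of 185 bp, chr1:91458694-91458878, lay next to it with a value of 2.65 and a −log10 p of 3.66, rank 5752 of 5775 by that measure, although its deposited score was 1000, the maximum. The third, chr1:91411927-91414683, lay outside the other end by 2820 bp, with a value of 4.16, and was nearer to Hes6, a HES-family transcriptional regulator whose listed start was 65 bp from the summit. The 3 Per2 peaks thus lie at both ends of the gene, and the peak beside Hes6 cannot be assigned to Per2 alone.

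Per1, the third Period gene, had no summit near either of its listed transcription starts. Its only summit within 5 kb lay 948 bp past the higher-coordinate end, which is the end away from the starts, in a peak of 259 bp at chr11:69110767-69111025 with a value of 6.30 and a −log10 p of 18.9. That summit was 6 bp from the transfer RNA gene n-TScga3 and 375 bp from n-TTagt5. Of the other 5 peaks within 50 kb of Per1, those at 31564 and 8838 bp from the nearer gene end were also 22 and 9 bp from an end of a transfer RNA gene. In the knockout list 3 of 7 summits lay within 1 kb of such a gene, and in the whole wild-type list 38 of 5775 (0.658%). Without these peaks, an alternative chosen after the values were seen, Per1 was no longer occupied and 6 of 10 core clock genes were, against 26.3% of all protein-coding genes. The part of the transfer RNA genes in the Per1 peak was not tested. The strongest peak within 50 kb of Per1, at 7.54, had its summit 7 bp from an end of Vamp2, a vesicle fusion protein gene, and 6573 bp from Per1.

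Of the cryptochromes, Cry1 was occupied and Cry2 was not. Cry1, a repressor of CLOCK and BMAL1, had a peak of 1439 bp at chr10:85184244-85185682 with an enrichment value of 6.49 and a −log10 p of 22.5, the highest −log10 p of the 10 peaks within 5 kb of a core clock gene (rank 353 of 5775). Its summit lay 161 bp upstream of the start, inside the window printed above, and no other protein-coding gene end lay within 5 kb of it. It was the only peak within 50 kb of Cry1. Cry2 encodes the second repressor of this kind. Its closest summit, with a value of 6.87, lay 26361 bp away beside Slc35c1, a GDP-fucose transporter gene, which was named after its values were seen.

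Of the REV-ERB genes, which are also nuclear receptor genes, Nr1d2 was occupied and Nr1d1 was not. Nr1d2 had a peak of 1497 bp at chr14:18238100-18239596 with an enrichment value of 5.96, a −log10 p of 18.8 and its summit 55 bp downstream of the start. The 3 peaks within 50 kb of Nr1d1 lay at 26010, 34470 and 49926 bp, with values of 6.11, 4.20 and 6.60. The closest was inside Thra, the thyroid hormone receptor α gene, which overlaps an end of Nr1d1, and lay 1146 bp from the far end of Thra.

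The positive arm had a peak at each of its genes, but the rule counted that of Clock only. Clock, which encodes the partner of BMAL1, had a peak of 1537 bp at chr5:76303647-76305183 with an enrichment value of 5.26, the lowest of the 7 occupied genes, and a −log10 p of 15.3. Its summit lay 30 bp downstream of a listed start and 114 bp from the long noncoding RNA gene Gm7467. Arntl had a peak of 1791 bp at chr7:113206925-113208715 with a value of 4.64 (rank 4802) and a −log10 p of 12.6. Its summit lay 368 bp upstream of the first listed start of Arntl and 28626 bp inside the annotated gene, which begins further upstream than the listed starts, so the gene-end rule left it out. Counting listed starts as well as gene ends, an alternative chosen after the values were seen, gave 8 of 10 core clock genes, against 27.2% of all protein-coding genes. With the listed starts alone, 6 of 9 genes had a summit within 5 kb, against 24.3%. Counting a summit within 5 kb of either gene end or anywhere inside the gene gave 8 of 10, against 28.3%.

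Dbp encodes a bZIP activator of clock-controlled genes and is itself a strong target of CLOCK and BMAL1 through E-boxes within the gene. It had 2 peaks inside the gene, at chr7:45706516-45707121 (enrichment value 5.58, summit 1687 bp downstream of the start) and chr7:45707282-45707915 (6.52, 2538 bp downstream), and none at its start. Both summits were also within 5 kb of Car11, a carbonic anhydrase-related gene, and of Sphk2, a sphingosine kinase gene, and the stronger one was nearer to Sphk2 (1678 bp) than to an end of Dbp (2418 bp). Dbp was still occupied, as were the other 6 genes, when each summit counted only for the protein-coding gene with the nearest end (7 of 10, against 21% of all protein-coding genes) or when any base of a peak within 5 kb counted (7 of 10, against 26.9%). Dbp had 7 peaks within 50 kb, and 0.334% of all protein-coding genes had that many or more. Ends of 9 other protein-coding genes lay in that stretch. Per1 had 6 peaks with 7 such genes, Per2 had 6 peaks with 4, and the 1 peak of Cry2, Cry1, Nr1d2 and Arntl each came with 6, 3, 3 and 1 such genes.

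**Figure D3:**
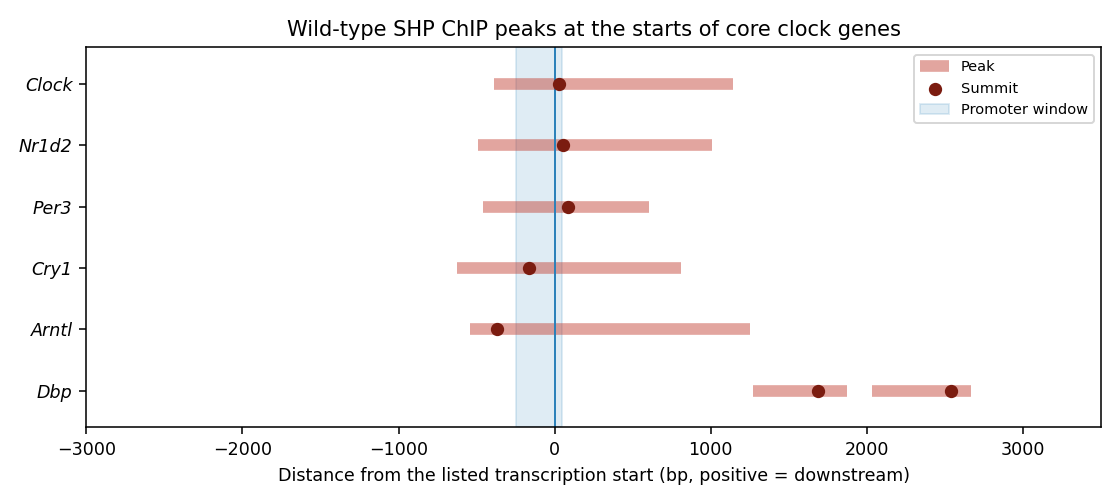
Wild-type SHP peaks (bars) and their summits (dots) around the listed transcription start of 6 core clock genes, in bp from the start (x axis, positive values downstream), with the start nearest to the summit used for each gene. Only the 6 of 9 genes with a summit within 5 kb of a listed start are drawn, and Per1, Cry2 and Nr1d1, which had none, are left out. The shaded band is the 300-base promoter window. The summits of Clock, Nr1d2, Per3, Cry1 and Arntl lie between 368 bp upstream and 84 bp downstream of the start, and both Dbp summits lie downstream, at 1687 and 2538 bp.

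**Figure D4:**
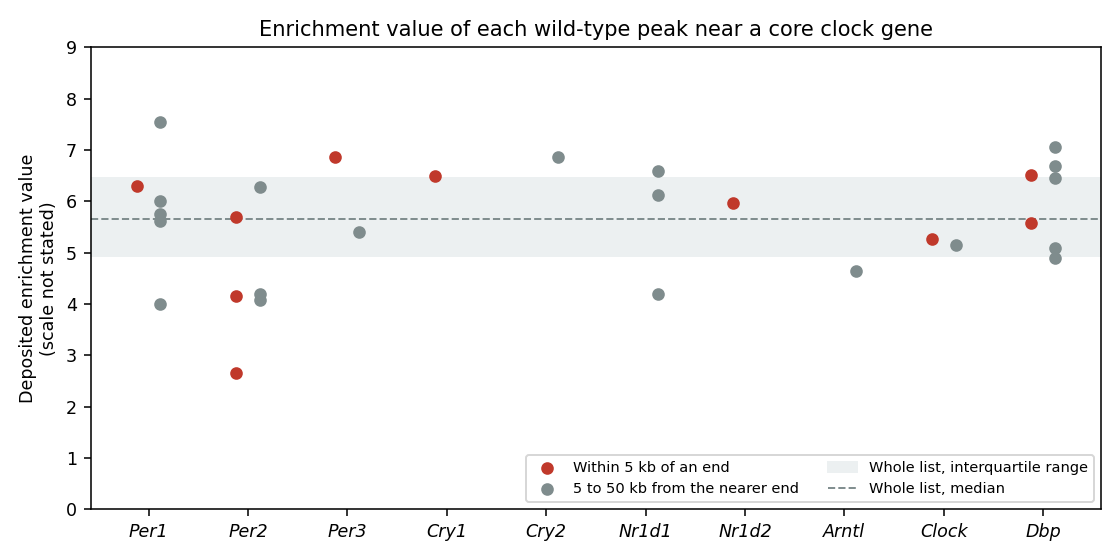
Deposited enrichment value (y axis, scale not stated) of every wild-type peak within 50 kb of each core clock gene, with 1 point per peak. Red points are peaks within 5 kb of a gene end, grey points are 5 to 50 kb away, the band is the interquartile range of the whole list (4.93 to 6.46) and the dashed line its median (5.65). The strongest peaks of the occupied genes lie between 5.26 and 6.86.

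The strongest peak within 5 kb of each occupied core clock gene, except Clock, had an enrichment value above the list median of 5.65. The strongest peak within 5 kb had a median value of 6.30 over the 7 occupied genes (range 5.26 to 6.86), against 5.73 over all 5778 occupied protein-coding genes (interquartile range 5.01 to 6.48). The order ran Per3 (6.86), Dbp (6.52), Cry1 (6.49), Per1 (6.30), Nr1d2 (5.96), Per2 (5.70) and Clock (5.26), and with 1 list there is no spread with which to tell neighbours in this order apart. Of the 10 peaks within 5 kb, 6 were at or above the list median by enrichment value and 8 by −log10 p, 5 had the maximal score of 1000 (25.4% of the whole list did), and 8 had an enrichment value and a −log10 p identical to those of at least 1 other peak. With peaks whose −log10 p reached the list median, 7 of 10 core clock genes were still occupied, against 14.8% of all protein-coding genes. With peaks at or above the 75th percentile of the enrichment value, 3 of 10 were (Per3, Cry1 and Dbp), against 6.89%. Read depth was unknown, so no interval for a peak's value could be made.

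No knockout peak lay near a core clock gene. None of the 7 knockout summits was within 500 kb of an end of any of the 10 genes, and none of the 7 knockout peaks shared a base with a wild-type peak within 50 kb of them. The knockout summit closest to a core clock gene was 779615 bp from Nr1d1. The knockout list was filtered by another method and is short, so the lack of peaks there cannot show that the wild-type peaks depend on SHP.

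The core clock promoters that share bases with a peak were mostly rich in G and C. Of 13 windows listed for 9 of the genes, 8 shared at least a base with a peak, in Per3, Cry1, Nr1d2, Arntl and Clock, and the windows of Per1, Cry2, Nr1d1 and Dbp did not. Among 21263 windows of protein-coding genes the share was 20.6%. It ran from 1.81% of windows with a G+C content under 50%, through 13.6% at 50% to under 60% and 35.1% at 60% to under 70%, to 51% at 70% or more. The core clock counts in these classes were 1 of 1 (the most downstream listed start of Clock, at 47%), 0 of 1 (Nr1d1, at 56.3%), 3 of 6, and 4 of 5, where Cry2, at 70.3% with 30 CpG sites, was the exception. These windows are not independent, as the same peak covered all 3 Clock windows and the same peak the 2 Arntl windows. The 8 windows belong to 5 of the 9 genes. The Clock window at 47% met the edge of its peak, whose summit lay 1260 bp upstream of that start. The Cry1 window had 72.3% and 38 CpG sites, and the Per3 window 73.3% and 41. The GC box was in 77.2% of windows that share bases with a peak and in 38.2% of the others, and was present 7 times in both the Per3 window, which has a peak, and the Cry2 window, which has none. The part of base composition in the core clock counts was not tested.

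**Figure D5:**
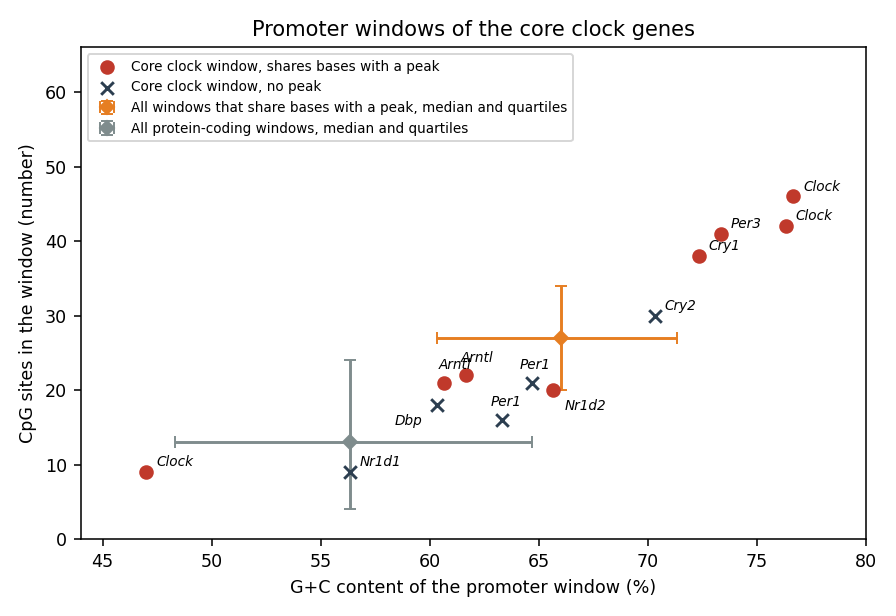
G+C content (x axis, percent) and number of CpG sites (y axis) in the 300-base promoter windows of 9 core clock genes, with 1 point per listed start. Red dots share bases with a wild-type peak, dark crosses do not, and diamonds with bars are the medians and quartiles of the windows that share bases with a peak (66% and 27 sites) and of all protein-coding windows (56.3% and 13 sites). Cry2 (70.3%) is the richest window without a peak.

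Beyond the core loop, 18 of 36 other clock genes were occupied (50%, 32.9 to 67.1, against 26.4% of all protein-coding genes), and the counts by role follow, without a test of any difference between roles. This list too was chosen with earlier results of these data known. The count was 11 of 36 within 1 kb (30.6%, against 20.7% of all protein-coding genes) and 8 of 36 with peaks whose −log10 p reached the list median (22.2%, against 14.8%). With peaks at or above the 75th percentile of the enrichment value it was 3 of 36 (8.33%), near the 6.89% of all protein-coding genes. Of the PER complex and chromatin partners, 8 of 9 were occupied. These were Hdac3 (6.66) and Ncor1 (5.35), the deacetylase and corepressor recruited by REV-ERBs, Sirt1 (5.74), a deacetylase that acts on PER2 and BMAL1, Wdr5 (5.63), Sfpq (5.60), Timeless (5.56), Crebbp (5.50) and Ep300 (5.48). Nono was not, with its closest summit 2293381 bp away. With each summit counted only for the gene with the nearest end, Hdac3 and Crebbp, whose summits lay 1387 and 3637 bp outside them, were not occupied, which left 6 of these 9 genes and 16 of all 36 (44.4%, against 21% of all protein-coding genes). Most of these genes act in general chromatin and RNA processing and are not particular to the clock. With the listed starts as the only reference points, 14 of 31 other clock genes had a summit within 5 kb (45.2%, against 24.3%). Timeless and Crebbp did not, and Hdac3 had no entry in the promoter table.

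Rora and Rorb encode ROR receptors, which activate Arntl at the elements that REV-ERBs occupy, and neither had a summit within 5 kb. The nearest summit to an end was 98417 bp away for Rora (7.70, inside the gene) and 217586 bp for Rorb. Among the E-box repressors and CLOCK-BMAL1 inhibitors, Bhlhe41 (6.43), Ciart (4.33) and Bhlhe40 (4.17) were occupied and Cipc was not. Npas2 (6.00), which can stand in for CLOCK, was occupied with the summit 119 bp inside an end of the gene, and Arntl2 was not. Of the PAR bZIP genes and their antagonist, Nfil3 (4.51) was occupied, and Tef and Hlf were not. As with Arntl, a Tef summit (7.70) lay away from both gene ends, at 9119 bp, but 378 bp downstream of a listed start. The counts in these roles, from 0 of 2 to 3 of 4, rest on few genes, and 26.4% of all protein-coding genes were occupied.

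Of the kinases that mark PER and CRY proteins for turnover or nuclear entry, Prkaa2 (6.11), Gsk3b (5.39) and Csnk1d (4.53) were occupied, and Csnk1e, Csnk2a1, Csnk2a2, Csnk2b and Prkaa1 were not. Of 5 ubiquitin ligase and protease genes, Huwe1 (7.08) was occupied, and Fbxl21, Btrc, Fbxw11 and Usp2 were not. Among the clock-controlled outputs, Nampt (7.18), the rate-limiting enzyme of NAD salvage, had the highest value within 5 kb of all 46 clock genes examined, and Noct and Wee1 were not occupied. The counts were thus 3 of 8 kinase genes, 1 of 5 ubiquitin ligase and protease genes and 1 of 3 outputs. By the same rule 26.4% of all protein-coding genes were occupied. The median value over the 18 occupied genes was 5.58 (range 4.17 to 7.18). Nr0b2 itself had no summit within 5 kb, the closest being 7456 bp upstream of its start.

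For the tissue, 5 of 10 intestinal epithelial marker genes were occupied, against 0 of 5 smooth muscle, 1 of 5 immune and 0 of 5 hepatocyte markers, with 26.4% of all protein-coding genes occupied by the same rule. A peak at a gene is not a measure of its expression, so these counts do not check the tissue label.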

How the data were processed

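SHP ChIP-seq peak lists of knockout and wild-type intestine were used, 1 list for each genotype, and the input samples were not analysed here. Per the submitters' processing notes, CASAVA 1.4, the aligner BWA and the build mm10 were used. The peak caller, its settings, any pooling of the 3 sets and the read depth of the samples are not stated in those notes or in the labels. The deposited lists have 10 columns in narrowPeak layout and no header. The deposited signal of each peak (the enrichment value), its −log10 p and −log10 q, and its deposited score are the authors' values and were used only within a list. By their names, the knockout list holds overlapping peaks and the wild-type list (score 540 to 1000) passed a threshold of 0.05 on the irreproducible discovery rate.

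Positions were made 1-based, with the summit at the start plus the deposited offset. Gene ends, on chromosomes 1 to 19, X and Y, came from the RefSeq table of GRCm38.p6, and strands and starts from the RefSeq promoter table, which matched 9 of 10 core and 31 of 36 other clock genes. All 46 names matched a gene. Shares carry 95% exact (Clopper-Pearson) binomial intervals. The calculations used Python 3.11.15, pandas 2.3.3, NumPy 2.4.6 and SciPy 1.17.1, and the distance and motif functions were tested on simulated data. The rule for naming genes took all 10 core clock genes with their peaks, the protein-coding genes within 5 kb of their summits, the 36 other clock genes and Nr0b2. Some genes of the list of other clock genes are not reported here, and its counts leave them out. Slc35c1, Vamp2 and Thra were named after their values were seen. The core genes and lists were chosen with earlier results of these data known. Alternatives were the distance, the reference point, the peak threshold and the assignment of shared summits.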

Additional observations from a re-analysis of the deposited data

How the results depend on the processing

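The count of occupied core clock genes was 6 of 10 within 1 kb, against 20.7% of all protein-coding genes. It was 7 within 2 kb (against 23.1%) and within 10 kb (against 30.5%). Within 50 kb it was 10, where the share of all protein-coding genes rose to 48.2%. The count was 8 with genes holding a summit inside (against 28.3%) and 7 with any base of a peak counted (against 26.9%). It was 7 with the nearest gene only (against 21%) and 7 with the peaks whose −log10 p reached the list median (against 14.8%). With the listed transcription start as the only reference point it was 6 of 9 genes, against 24.3%, where Arntl was counted, Per1 was not and Per2 had no entry. It fell to 3 of 10 (Per3, Cry1 and Dbp) with peaks at or above the 75th percentile of the enrichment value, a threshold that 6.89% of all protein-coding genes met. The count of other clock genes, 18 of 36, was 11 within 1 kb (30.6%, against 20.7%), 8 with peaks whose −log10 p reached the median (22.2%, against 14.8%), 3 at or above the 75th percentile of the enrichment value (8.33%, against 6.89%) and 16 with the nearest gene only (44.4%, against 21%). By the listed starts alone it was 14 of 31 (45.2%, against 24.3%). The median value of the occupied core clock genes was 5.96 with the nearest peak in place of the strongest, where only Dbp changed, to 5.58. The counts of knockout peaks were 0 in each alternative, but with only 7 peaks in the knockout list they had little room to change. No paired analysis was possible because there is 1 peak list per genotype, and no replicate could be left out. Depth is unknown, so a gene without a peak is one where none was listed, not one shown to be unbound.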
